A study of Homo sapiens with 32 samples.

Results

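The CLCN5 cluster is a group of 8 microRNA hairpins, mir-532, mir-188, mir-500a, mir-362, mir-501, mir-500b, mir-660 and mir-502, that lie one after another inside introns of CLCN5, the gene of a chloride and proton exchanger of endosomes. Its members were taken by name from the table of read counts, where they are 8 of 1513 miRNA rows. The rows were chosen by name and host gene, with no measured threshold, but the cluster was proposed with the fitted changes of these libraries on ERH knockdown and deletion in view, so the counts of members called below describe it and are not independent support for it. All 8 rows passed the filter on low counts in each of the 8 comparisons.

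The 32 small RNA libraries were made from 293T, an easily transfected line of human embryonic kidney origin. They covered 8 clones: wild-type clones 52, 55, 57 and 67, and clones 30, 34, 42 and 43, whose DGCR8 gene had been changed by prime editing (genotype DGCR8 delta103-126Q) to lack the reported contact site of the protein ERH. Every clone received 4 vectors in separate transient transfections, non-targeting control shRNA 1 or 2, or ERH shRNA 1 or 2, was selected with puromycin at 2 µg/ml from 24 hours, and was sorted on day 5 for the vector's fluorescent marker. Controls therefore also carried a vector and selection, each clone is 1 cell lineage, and neither the edit nor the level of ERH mRNA was analysed here.

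Most miRNAs are released from longer transcripts by the Microprocessor, in which DROSHA cuts the base of a hairpin and DGCR8 holds its RNA. ERH is a small nuclear protein that binds the N-terminal part of DGCR8, and it is known for its part in the processing of suboptimal hairpins that sit beside a good one, with mir-15a next to mir-16 and mir-451a next to mir-144 as the best known cases. Hairpins of one transcript are made together but are cut one by one, so the levels of their mature products can differ.

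In GENCODE v29 (GRCh38) the 8 hairpins lie on the plus strand of chromosome X within 11536 bases, inside CLCN5 (chrX:49922615-50099235). Of the 9 annotated CLCN5 transcripts, 3 span every hairpin, and in these 3 none of the hairpins overlaps an exon; depending on the transcript the host intron is the second or the third. First comes mir-532 (chrX:50003148-50003238), followed after 264 bases by mir-188 (chrX:50003503-50003588). After a gap of 4842 bases come mir-500a (chrX:50008431-50008514), mir-362 (chrX:50008964-50009028), mir-501 (chrX:50009722-50009805) and mir-500b (chrX:50010672-50010750), at distances of 449 to 866 bases from each other. The last are mir-660 (chrX:50013241-50013337) and, 1260 bases on, mir-502 (chrX:50014598-50014683). Thus mir-532 and mir-502 are the outermost hairpins.

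The mature products show which rows can be told apart by sequence. They are given 5′ to 3′ from RefSeq (GRCh38.p14), with the seed, bases 2 to 8, in capitals. The first set holds both arms of the 2 outermost hairpins and of mir-188, the neighbour of mir-532.
miR-532-5p: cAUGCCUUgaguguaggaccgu
miR-532-3p: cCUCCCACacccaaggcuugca
miR-188-5p: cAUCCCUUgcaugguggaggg
miR-188-3p: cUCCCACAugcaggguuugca
miR-502-5p: aUCCUUGCuaucugggugcua
miR-502-3p: aAUGCACCugggcaaggauuca
The second set holds the products that resemble miR-502 or one another.
miR-500a-5p: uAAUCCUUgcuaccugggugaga
miR-500a-3p: aUGCACCUgggcaaggauucug
miR-500b-5p: aAUCCUUGcuaccugggu
miR-500b-3p: gCACCCAGgcaaggauucug
miR-501-3p: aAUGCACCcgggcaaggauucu
miR-362-5p: aAUCCUUGgaaccuaggugugagu
The 15 mature sequences matched had 13 different seeds. The seed AUGCACC was shared by miR-501-3p and miR-502-3p, and the seed AUCCUUG by miR-362-5p and miR-500b-5p. The products miR-500a-3p and miR-502-3p have a run of 20 bases in common, and all 18 bases of miR-500b-5p lie within miR-500a-5p. Each row of the table held both arms of a hairpin, and how reads that fit more than one of these sequences were assigned is not given in the sources used here, so the split between the rows mir-500a, mir-500b, mir-501 and mir-502 is uncertain. For miR-532 and miR-188 the longest run in common was 8 bases.

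The hairpins of mir-532 and of its neighbour mir-188, and of mir-502 and its look-alike mir-500a, are shown because the results turn on how members of these pairs differed. Capitals mark the mature arms.
mir-532 hairpin: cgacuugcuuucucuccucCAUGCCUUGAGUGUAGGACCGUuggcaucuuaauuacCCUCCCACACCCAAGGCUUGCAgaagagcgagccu
mir-188 hairpin: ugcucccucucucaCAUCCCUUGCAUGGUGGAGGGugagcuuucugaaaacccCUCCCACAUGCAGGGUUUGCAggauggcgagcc
mir-502 hairpin: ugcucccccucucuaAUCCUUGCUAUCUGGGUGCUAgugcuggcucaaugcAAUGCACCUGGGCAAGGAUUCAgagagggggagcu
mir-500a hairpin: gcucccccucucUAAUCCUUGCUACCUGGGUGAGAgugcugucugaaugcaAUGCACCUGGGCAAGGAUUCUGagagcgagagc
The minimum free energies that RNAfold gave for these hairpins were -30.80 kcal/mol for mir-532, -38.60 for mir-188, -57.00 for mir-502 and -37.80 for mir-500a. Among the 7 hairpins with a matched sequence, which differ in length (65 to 97 bases), mir-532 had the weakest total energy and mir-502 the strongest, and mir-362, mir-660 and mir-500b lay between at -31.50, -32.80 and -40.80 kcal/mol. Per base, mir-532 and mir-660 were equally weak at -0.338 kcal/mol, and mir-502 was at -0.663.

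Depth varied between 1318923 and 6222790 miRNA counts per library. No library repeated another of its group: in the 48 pairs, the lowest chi-square per degree of freedom was 75.4. The labels do not say that the transfections were repeated, so the clone is the replicate, and counts of the 2 shRNAs of an arm were added to give 1 control and 1 ERH value per clone. Levels are given as CPM, read counts brought to a common library size, here scaled by the trimmed mean of M-values (TMM), a method that aligns the bulk of rows between samples.

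Over all libraries the cluster held 378338 counts, 0.487% of all miRNA counts. The row mir-660 was the most abundant, with 0.242% of all counts and the 58th highest mean CPM, and mir-532 was next with 0.143%. Counts per library ran from 1877 to 13863 for mir-660, from 1107 to 6400 for mir-532 and from 39 to 533 for mir-502, and the lowest count was 23, for mir-501. Counts compare rows as sequenced, since ligation and amplification can differ between small RNAs.

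In wild-type clones under control shRNAs, mean CPM was 2844 ± 1011 (SD, n = 4) for mir-660, 2447 ± 786 for mir-532, 462 ± 163 for mir-500a and 278 ± 78.0 for mir-362. Lower means were found for mir-500b, with 164 ± 63.0, and for mir-502, with 156 ± 47.6. The lowest were mir-188, with 74.7 ± 26.8, and mir-501, with 52.3 ± 18.4. The levels of mir-660 and mir-532 overlapped between clones, as did those of mir-500b and mir-502. Much of the spread came from clone 57, which had the lowest CPM of the 4 wild-type clones for 8 of 8 members in both arms and a cluster sum of 3392 CPM under control shRNAs, against 7279 to 7855 in the other wild-type clones.

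**Figure D1:**
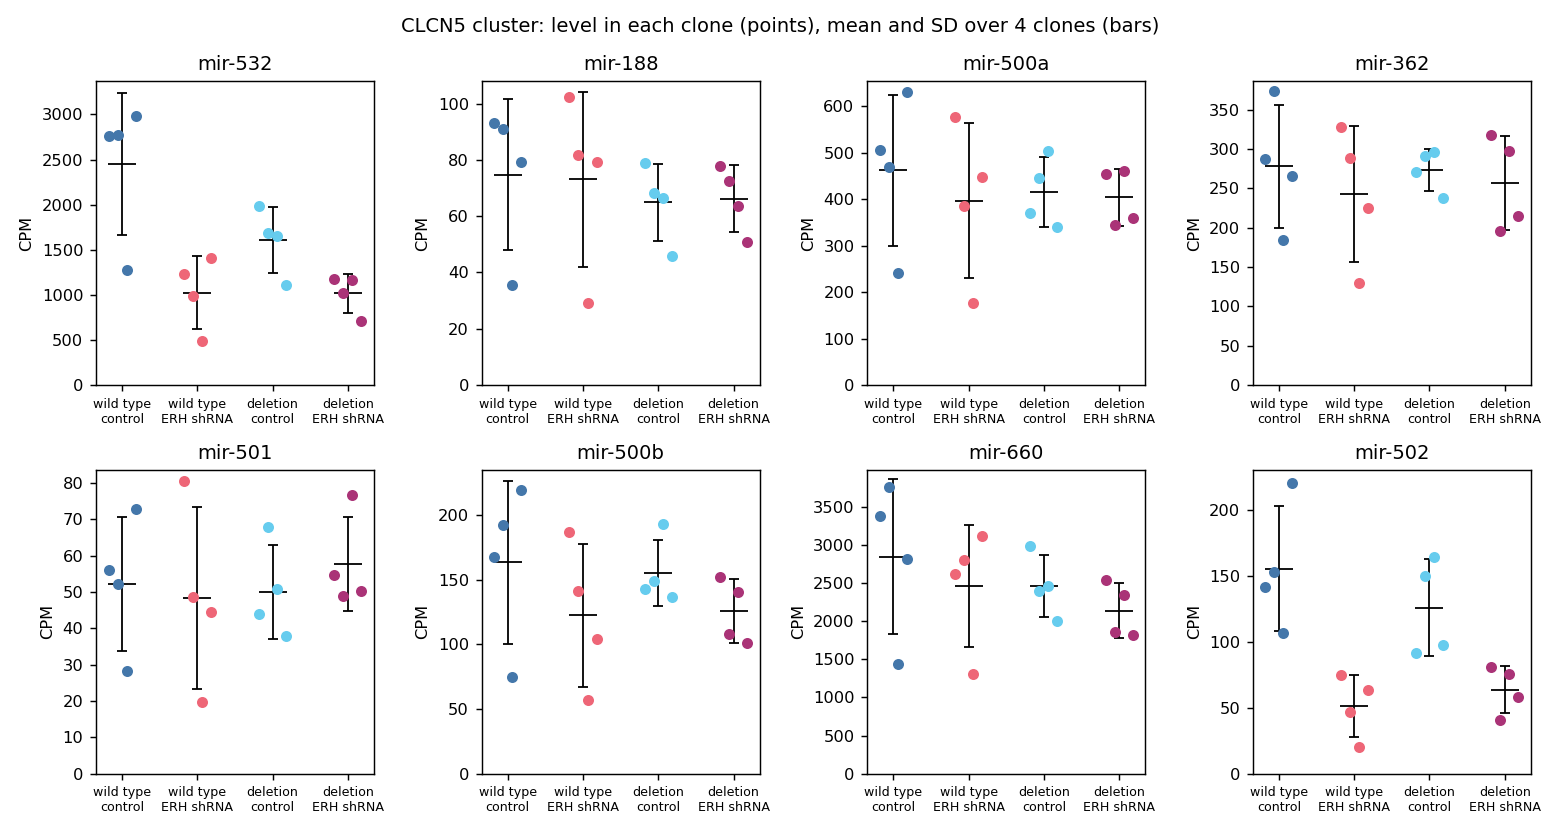
CPM of each member (linear axis from 0) by genotype and shRNA arm, in genomic order, with 1 point per clone and the mean and SD over 4 clones. Means of mir-532 and mir-502 are lower under ERH shRNAs in both genotypes, as are, by smaller fractions, those of mir-500a, mir-362, mir-500b and mir-660. Within each genotype the points of mir-502 do not overlap between arms, while those of the other members, mir-532 included, do.

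Under ERH shRNAs mir-532 and mir-502, the outermost members, were lower than under control shRNAs, while of the 6 members between them mir-500b alone passed the test, with a smaller change. The value of mir-532 in clones 52, 55, 57 and 67 was 2764, 2769, 1277 and 2978 CPM under control shRNAs. Under ERH shRNAs it was 1227, 987, 483 and 1404 CPM. It was thus lower in every wild-type clone, although the low control value of clone 57 lay below the ERH value of clone 67. In deletion clones 30, 34, 42 and 43, mir-532 stood at 1986, 1688, 1652 and 1104 CPM under control shRNAs. With ERH shRNAs these clones gave 1173, 1017, 1163 and 715 CPM. It was lower in each clone, and the control value of clone 43 again lay within the range of the ERH values.

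For mir-502 the control values of clones 52, 55, 57 and 67 were 142, 153, 107 and 221 CPM, and the ERH values 74.8, 46.8, 20.5 and 63.5 CPM. These ranges did not overlap. Deletion clones 30, 34, 42 and 43 had 91.5, 150, 164 and 97.9 CPM under control shRNAs and 80.7, 41.1, 75.6 and 58.1 CPM under ERH shRNAs. Here too the ranges did not overlap, but clone 30 changed little.

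Across all 8 clones, with the clone as a block, edgeR's quasi-likelihood test with Benjamini-Hochberg adjustment over 667 rows called 3 of 8 members lower and 0 higher. Of all rows tested, 110 (16.5%) were lower and 134 higher. The largest change was that of mir-502, at -1.34 on the log2 scale (SE 0.19, adjusted p = 1.2e-05), a 2.53-fold decrease. For mir-532 the change was -0.97 (SE 0.12, adjusted p = 2.0e-06), a 1.96-fold decrease. The third, mir-500b, changed by -0.38 (SE 0.14, adjusted p = 0.042), but spike-in scaling turned its sign to 0.08, and 11 of its other 16 alternatives, among them the fits without clone 34, 42, 43, 55 or 67 (-0.37 to -0.30, adjusted p = 0.064 to 0.086), ended the call. For the other 5 members log2 fold changes ran from -0.20 for mir-660 to 0.01 for mir-501, with adjusted p of 0.127 to 0.957. The median over members was -0.19, beside 0.06 over all rows tested.

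Both mir-532 and mir-502 were lower in 8 of 8 clones on knockdown, and 64 of 667 rows (9.6%) were. With each vector pair mir-532 was lower: log2 changes averaged -1.02 ± 0.43 (SD, n = 8) for ERH shRNA 1 against control shRNA 1 and -0.78 ± 0.39 for the second pair, each lower in 8 of 8 clones. For mir-502 they averaged -1.17 ± 0.61 and -1.58 ± 1.09, lower in 8 and 7 of 8 clones, clone 30 being the one that was not. Between the 2 control shRNAs, edgeR called 0 of 8 members and 0 of 571 rows (0%), with 1 member and 48 rows at an unadjusted p under 0.05, and DESeq2 called 1 row. The log2 differences of mir-532 and mir-502 there were -0.14 (SE 0.11) and 0.14 (SE 0.14). The 1 member at an unadjusted p under 0.05 was mir-188, at -0.32 (SE 0.15, adjusted p = 0.551 in edgeR).

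These directions depend on scaling for the members between the outermost. Spike-in scaling, which sets libraries by the added reference RNAs, moved the median of all rows from 0.06 to 0.52, and scaling by total miRNA counts moved it to 0.33. Members below 0 then numbered 2 and 3 of 8, against 7 with TMM. The log2 fold change of mir-532 stayed between -1.03 and -0.51 and past the threshold in 19 of 19 alternatives, and that of mir-502 between -1.57 and -0.88 in 18 of 18. Those 18 leave out the alternative that adds the rows mir-500a, mir-500b, mir-501 and mir-502, which has no separate mir-502 row. The added row changed by -0.33 (adjusted p = 0.032 in edgeR). How reads shared by these rows were assigned was not tested. Calls over all rows split 233 higher and 22 lower with spike-ins, 210 and 36 with total counts, 129 and 130 with DESeq2, and 109 and 130 with a GC offset.

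**Figure D2:**
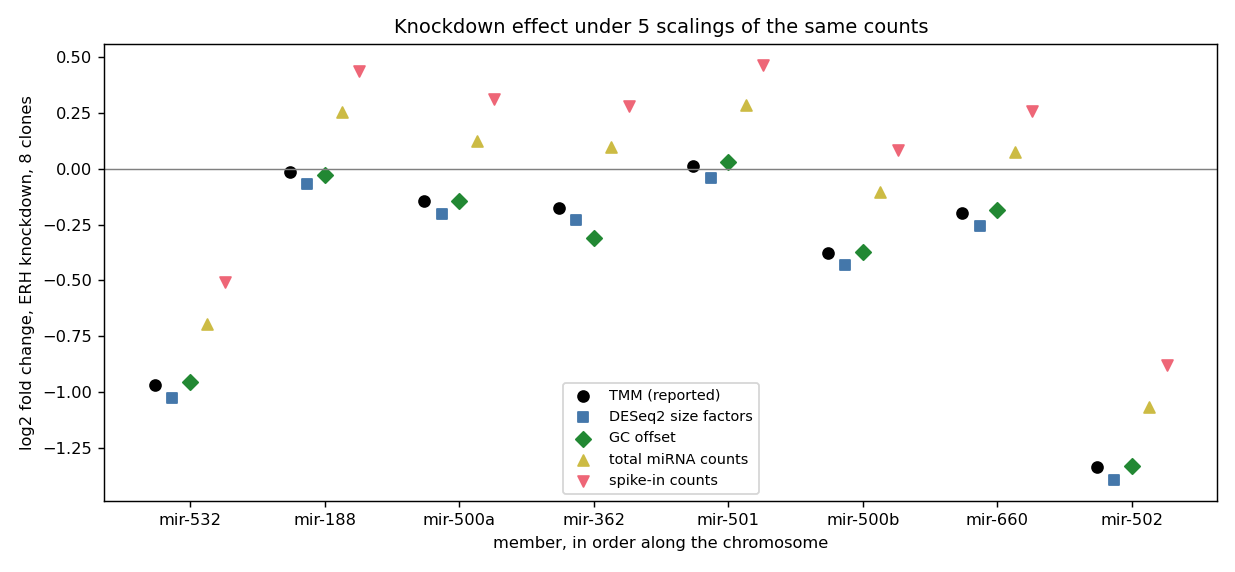
Log2 fold change of each member on ERH knockdown in 8 clones under 5 scalings of the same counts. The symbols of mir-532 and mir-502 are below 0 under each, and the sign of each other member depends on the scaling.

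Within wild-type clones, 2 of 8 members were lower, where 64 of 613 rows (10.4%) were. The row mir-532 changed by -1.26 (SE 0.17) and mir-502 by -1.67 (SE 0.22), both with an adjusted p of 2.0e-05 in edgeR. Other members lay between -0.41 for mir-500b and -0.05 for mir-188, with adjusted p of 0.141 to 0.871. DESeq2 also called mir-500b (-0.55, adjusted p = 0.040), edgeR with a GC offset mir-362 (-0.48, adjusted p = 0.045), and edgeR with the first vector pair alone both of them. With spike-in scaling mir-532 was -0.65 (adjusted p = 0.121 in edgeR) and lost its call. Calls over all rows split 128 higher and 64 lower with TMM, 170 and 11 with spike-ins, 184 and 27 with total counts, 108 and 114 with DESeq2, and 74 and 114 with a GC offset.

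Within deletion clones, the same 2 of 8 members were lower, beside 38 of 633 rows (6%). The change was -0.66 (SE 0.10, adjusted p = 0.0023 in edgeR) for mir-532 and -0.99 (SE 0.22, adjusted p = 0.022) for mir-502. The remaining 6 ranged from -0.32 for mir-500b to 0.20 for mir-501, with adjusted p of 0.137 to 0.897. Calls over all rows split 27 higher and 38 lower with TMM, 85 and 17 with spike-ins, 86 and 23 with total counts, 37 and 57 with DESeq2, and 31 and 40 with a GC offset. Without the replicate block the values stayed at -0.67 for mir-532 and -0.99 for mir-502 but neither call held (adjusted p = 0.194 and 0.105), the call of mir-502 did not hold without clone 42 (-0.95, adjusted p = 0.110), and that of mir-532 held neither with spike-in scaling (-0.37, adjusted p = 0.286) nor with the second vector pair alone (-0.59, adjusted p = 0.100).

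The test of the difference between these knockdown effects, the interaction of knockdown and deletion, called 0 of 8 members and 0 of 667 rows (0%) in edgeR, with 2 members and 127 rows at an unadjusted p under 0.05. For mir-532 the interaction was 0.67 (SE 0.17, adjusted p = 0.085 in edgeR), and for mir-502 0.76 (SE 0.35, adjusted p = 0.243). So the smaller changes in deletion clones were not shown to differ at this threshold. DESeq2 called mir-532 here (0.72, adjusted p = 0.0086), as did edgeR with a mean of at least 100 counts (0.52, adjusted p = 0.04996) or without clone 52 (0.70, adjusted p = 0.0355). Over the alternatives of this value it ran from 0.28 to 0.72 and its adjusted p from 0.0086 to 0.805. Over all rows DESeq2 called 5 higher and 11 lower, scaling by total miRNA counts 0 higher and 29 lower, and a GC offset 1 higher.

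**Figure D3:**
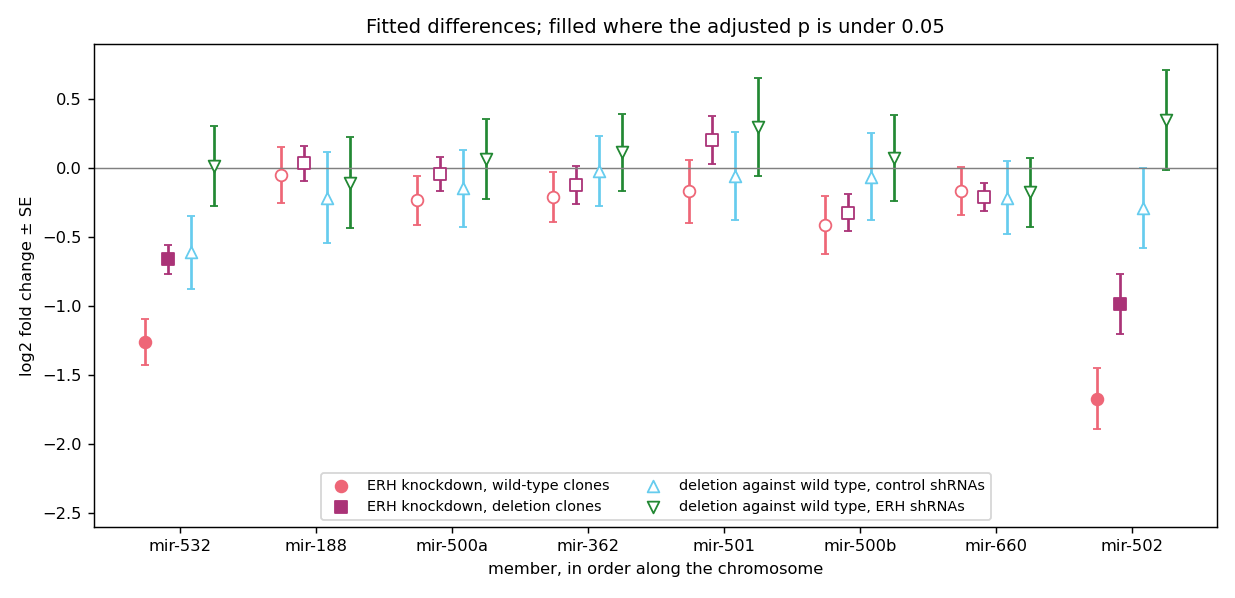
Log2 fold change ± SE of each member, in genomic order, for ERH knockdown in each genotype and for deletion against wild type in each shRNA arm. Filled symbols, where the adjusted p was under 0.05, are found at mir-532 and mir-502, and both are knockdown effects.

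Deletion of the ERH contact site, compared under control shRNAs, called 0 of 8 members in edgeR (1 at an unadjusted p under 0.05) and 0 in DESeq2, while edgeR called 139 of 536 rows (25.9%). By size mir-532 came first, with 1607 ± 367 CPM in deletion clones against 2447 ± 786 in wild-type clones (SD, n = 4 each) and a log2 difference of -0.61 (SE 0.26, adjusted p = 0.103 in edgeR). Without wild-type clone 57 it was -0.73 (adjusted p = 0.038), and over all its alternatives the adjusted p ran from 0.038 to 0.871. For mir-502 the change was -0.29 (SE 0.29, adjusted p = 0.480), and the other members ranged from -0.21 to -0.02. The median over members was -0.18 and over all rows -0.03. For 0 of 8 members were the 2 genotypes' CPM values without overlap, a state that 157 of 536 rows (29.3%) showed. Spike-in scaling moved the median of all rows to 0.42 and left 1 member below 0, and calls over all rows split 101 higher and 38 lower with TMM, 134 and 0 with spike-ins, 154 and 4 with total counts, 108 and 69 with DESeq2, and 51 and 61 with a GC offset.

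Between genotypes under ERH shRNAs, edgeR called 0 of 8 members and 0 of 569 rows (0%), with 0 members and 87 rows at an unadjusted p under 0.05. DESeq2 called 5 rows higher and 3 lower there. Levels of mir-532 were 1017 ± 214 CPM in deletion clones and 1026 ± 400 in wild-type clones (SD, n = 4 each), a log2 fold change of 0.02 (SE 0.29). For mir-502 the levels were 63.9 ± 18.02 and 51.4 ± 23.6 CPM, a log2 fold change of 0.35 (SE 0.36).

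Deletion plus knockdown against the wild-type control arm again called mir-532 and mir-502 lower, 2 of 8 members beside 91 of 553 rows (16.5%). The log2 fold changes were -1.16 (SE 0.26, adjusted p = 0.0034 in edgeR) and -1.17 (SE 0.29, adjusted p = 0.0054), and the other members ranged from -0.31 to 0.25. Both calls were lost with spike-in scaling (-0.60 and -0.59) and with total miRNA scaling (-0.67 and -0.70). Calls over all rows split 168 higher and 91 lower with TMM, 238 and 20 with spike-ins, 231 and 24 with total counts, 150 and 143 with DESeq2, and 112 and 125 with a GC offset. This comparison shares its control libraries with the wild-type knockdown and the deletion comparison, so the 3 are not independent.

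Ordered by mean, mir-532 was highest in wild-type controls, lower in deletion controls, and about equal in both ERH arms. Wild-type and deletion controls overlapped through clone 57, and the deletion controls overlapped the ERH arms through clone 43. For mir-502 both control arms overlapped each other and both ERH arms overlapped each other.

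Shares within the cluster need no scaling between libraries, since each member is divided by the sum of the 8. They are not independent of each other, because a fall in one raises the rest. The share of mir-532 was 37.8% ± 2.34 (SD, n = 4) in wild-type controls and 22.9% ± 2.16 under ERH shRNAs. In deletion clones it was 30.9% ± 2.46 and 24.6% ± 2.65. The log2 share of mir-532 changed on knockdown by -0.53 ± 0.22 (SD, n = 8), lower in 8 of 8 clones. That of mir-502 changed by -0.90 ± 0.62, lower in 7 of 8 clones, with 0.12 in clone 30. Shares of mir-660 and mir-188 were higher in 8 of 8 clones, by 0.24 ± 0.18 and 0.42 ± 0.17. With the first vector pair alone the share of mir-188 changed by 0.24, higher in 6 of 8 clones, and that of mir-660 was higher in 7 of 8 clones with either pair. With the second pair alone the share of mir-532 was lower in 7 of 8 clones. The share of mir-502 was lower in 7 of 8 clones with the first pair and in 6 of 8 with the second. In the second pair 1 wild-type clone rose by 0.14 and 1 deletion clone by 0.06. Mean changes over the sums were 0.29 for mir-500a, 0.26 for mir-362, 0.45 for mir-501 and 0.06 for mir-500b.

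**Figure D4:**
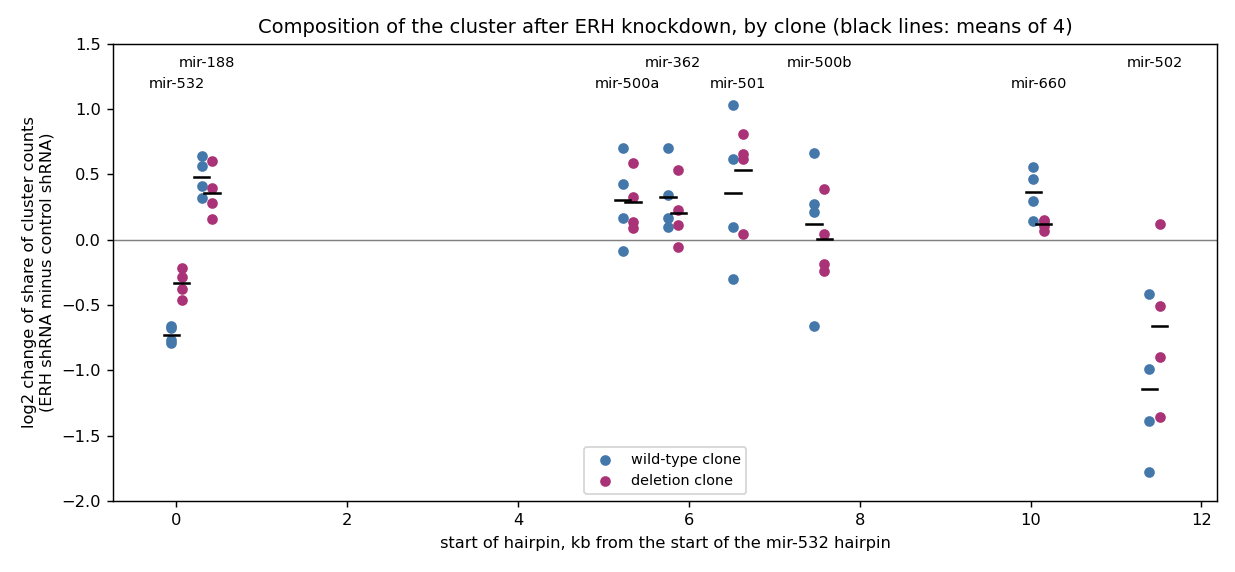
Log2 change of each member's share of the cluster's counts on ERH knockdown, both vectors added, 1 point per clone, against the distance of the hairpin from the start of mir-532 in kb. The outermost hairpins lie below 0 apart from mir-502 in clone 30, at 0.12, and mir-188, at 0.36 kb, lies above 0 in each clone.

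Between genotypes under control shRNAs, the share of mir-532 was 35.3% to 40.9% in wild-type clones and 27.6% to 33.3% in deletion clones, without overlap. With control shRNA 1 alone the ranges were 36.1% to 39.4% and 29.03% to 33.6%, and with control shRNA 2 alone 34.3% to 42.7% and 24.6% to 33.0%, again without overlap. The other 7 shares overlapped in the sums. With control shRNA 1 alone the share of mir-660 also separated the genotypes, at 40.2% to 47.5% in wild-type and 48.1% to 52.8% in deletion clones. With control shRNA 2 it overlapped. Such shares were not computed for other rows, so no background rate stands beside these separations. Under ERH shRNAs the share of mir-532 overlapped too, with 20.7% to 25.6% in wild-type and 21.2% to 27.6% in deletion clones.

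The ratio of mir-532 to mir-188, whose hairpins are the closest pair of the cluster, separated the arms in both genotypes when the counts of both vectors were added. In clones 52, 55, 57 and 67 there were 29.7, 30.4, 35.9 and 37.6 mir-532 counts per mir-188 count under control shRNAs. Under ERH shRNAs there were 12, 12.1, 16.6 and 17.7. Clone 57, low in both rows, was not low in this ratio. In clones 30, 34, 42 and 43 the control ratio was 25.2, 24.8, 24.8 and 24.1, and the ERH ratio 15, 14.02, 18.3 and 14.1. In these sums the deletion controls lay between the wild-type controls and the ERH arms without overlap. The log2 ratio changed on knockdown by -1.21 ± 0.13 (SD, n = 4) in wild-type and by -0.70 ± 0.17 in deletion clones, ranges that did not overlap. The separation of the genotypes did not hold within each vector pair, an analysis chosen after seeing the data. With the first pair the log2 ratio changed by -1.23 ± 0.35 in wild-type and -0.43 ± 0.36 in deletion clones, again without overlap. With the second it changed by -1.07 ± 0.53 and -0.95 ± 0.27, with overlap. Deletion and wild-type ratios under control shRNA 2 overlapped too, with 31.1 in deletion clone 34 and 29.1 in wild-type clone 55, and with the first pair deletion clone 42 did not decrease (20.6 under control and 21.1 under ERH shRNA). In deletion clones mir-188 itself averaged a log2 change of -0.30 ± 0.14 with the first pair, lower in 4 of 4 clones, and 0.49 ± 0.32 with the second, higher in 4 of 4. These ratios were chosen after their values were seen and carry no test.

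At the other end, mir-502 over its neighbour mir-660 changed by -1.14 ± 0.76 on the log2 scale (SD, n = 8) and was lower in 7 of 8 clones, clone 30 giving 0.05. Each vector pair alone also gave 7 of 8 lower. The exception was clone 30 (0.04) with the first pair and wild-type clone 52 (0.19) with the second. Against mir-500a, with which miR-502-3p shares its long run of bases, mir-502 changed by -1.20 ± 0.45 and was lower in 8 of 8 clones. The ratio of mir-502 to mir-500a was 0.25 to 0.44 under control shRNAs and 0.12 to 0.18 under ERH shRNAs, without overlap, and it did not overlap with either vector pair alone.

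**Figure D5:**
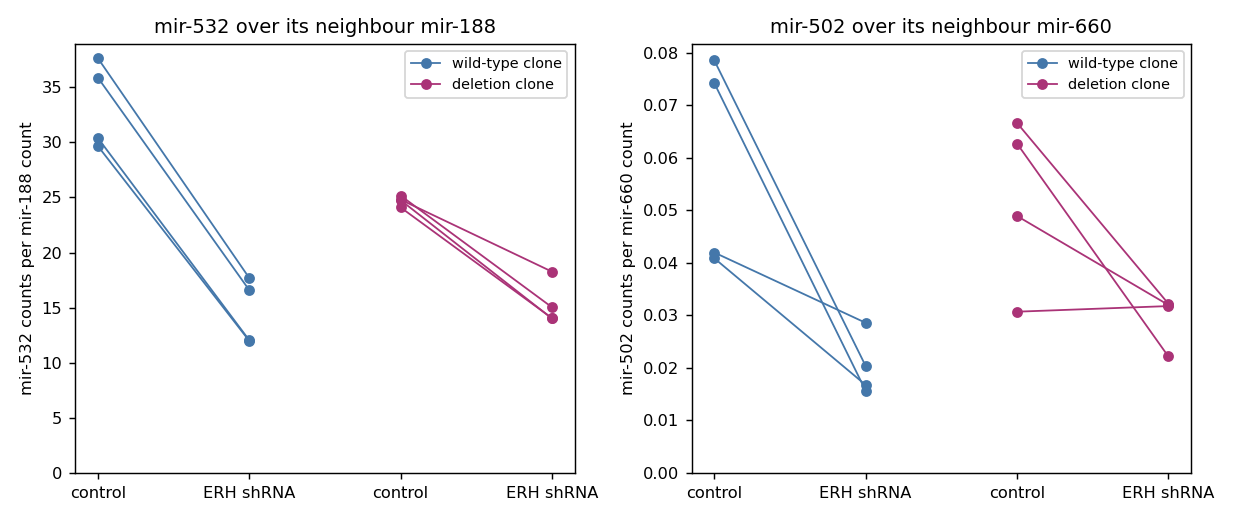
Counts of mir-532 per mir-188 count (left) and of mir-502 per mir-660 count (right), both vectors added, with a line per clone from its control to its ERH value (linear axes from 0). All 8 lines on the left slope down, as do 7 of 8 on the right.

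As a description over the 16 sums of clone and arm, which share clones, the 6 members between the outermost followed each other with Pearson correlations of log2 CPM from 0.62 to 0.92 (median 0.82, 15 pairs). Those of mir-532 with these 6 ran from 0.51 to 0.77, and those of mir-502 from 0.42 to 0.74. The correlation of mir-532 with mir-502, at opposite ends of the cluster, was 0.87. Clone 57 was the lowest of all clones for 6 members under control shRNAs and for 8 under ERH shRNAs. How much its 2 sums weigh in these correlations, and in the profile matches that follow, was not tested.

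Of the 359 other rows with a mean of at least 10 CPM, those most like the mean profile of the members were mir-374b (Pearson r = 0.79 over 16 sums), mir-98 (0.78), mir-505 (0.73), mir-421 (0.70) and mir-551a (0.70). The hairpins of the first 4 lie on chromosome X, as did 34 of the 359 rows compared. On knockdown in all clones mir-374b changed by -1.09 (SE 0.12), mir-421 by -0.70 (SE 0.13) and mir-98 by -0.73 (SE 0.15), each called lower by edgeR, while mir-505 at -0.18 (SE 0.12, adjusted p = 0.249) and mir-551a at -0.27 (SE 0.16, adjusted p = 0.197) were not called. Closest to mir-532 alone were mir-374b (0.89), mir-421 (0.87) and mir-98 (0.87), then mir-29c (0.84, chromosome 1) and mir-589 (0.81, chromosome 7). Closest to mir-502 were mir-374b (0.90), mir-589 (0.86), mir-365a (0.83, chromosome 16), mir-365b (0.83, chromosome 17) and mir-98 (0.80). The mean profile of the 6 members between the outermost was most like mir-505 (0.70), mir-585 (0.69, chromosome 5) and mir-551a (0.68, chromosome 1). After these came let-7f (0.67, chromosomes 9 and X) and mir-98 (0.64). All these names were taken after their values were seen.

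Other lists place the members. Of 16 other clustered miRNAs of chromosome X, 15 were tested on knockdown in all clones, with 9 lower, 0 higher and a median of -0.37, where 16.5% of all rows were lower and their median was 0.06. This list is a selection and does not stand for all clusters of that chromosome. Among clustered rows it leaves out, mir-452 changed by 0.88, mir-888 by 0.79, mir-891a by 0.53 and mir-892a by 0.53. In the other direction mir-514a changed by -0.30 and mir-892b by -0.05. EdgeR called none of these rows. All 5 hairpins with a reported link to ERH or to help from a neighbour, mir-15a, mir-15b, mir-16, mir-181b and mir-451a, were lower, with a median of -1.20. Of 12 hairpins that bypass the Microprocessor, 4 were tested and 0 called, with a median of 0.17. That list held mir-320a but not its relatives mir-320b, mir-320c and mir-320d. EdgeR called these higher on knockdown, at 0.65, 0.64 and 0.75 (adjusted p = 0.0026, 0.0032 and 0.0015). Under deletion with control shRNAs the lists had 2 of 15, 3 of 5 and 0 of 4 lower, with medians of -0.15, -0.47 and -0.43, beside 38 of 536 rows (7.09%) lower and a median of -0.03 over all rows. These lists were chosen with results of these data known and are no independent support.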

How the data were processed

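Small RNA was measured in 32 libraries made with the QIAseq miRNA kit from 100 ng of a mix of total RNA (400 ng) with 4 spike-in RNAs, per the labels' protocols. The authors deposited raw read counts per precursor row, 1513 miRNA rows and 4 spike-ins, whole numbers that are not normalized, per the file header. SAMtools is named in the submitters' processing notes. Aligner, genome build, annotation and use of molecular identifiers are not given in the sources used here, so amplification copies may be among the counts. All columns were matched to samples by their names (0 left over), and 0 rows lacked a name.

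Counts were summed over the 2 shRNAs of an arm per clone (16 sums) and tested with edgeR 4.0.16 (R 4.3.3), using filterByExpr with the design, TMM, glmQLFit and glmQLFTest, with adjustment over all rows tested and a threshold of 0.05. Knockdown and interaction fits had the clone as a block. The same clones received all vectors per the labels, and in each of the 8 clones the 2 arms deviated together from the averages of their groups (r = 0.35 to 0.63). Log2 CPM used a prior count of 2. The edgeR fit was also run on counts simulated from its own model. This was done for knockdown in all clones, deletion under control shRNAs and the interaction. Such a simulation cannot test the choice of scaling or the assignment of reads. Alternatives were DESeq2 1.42.0, spike-in and total scaling, no filter, a mean of at least 100 counts, a GC offset (GC known for 96.1% of rows), the reverse choice of the block, each vector pair, summed look-alike rows and each clone left out. Hairpins were folded with ViennaRNA 2.7.2. Positions came from GENCODE v29 and sequences from RefSeq, with 7 of 8 hairpins matched. All 8 members were named, with the 5 rows most like their mean profile. Members and lists were chosen with earlier results of these data known.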

Additional observations from a re-analysis of the deposited data

Results flagged for a closer look

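The wild-type clone 57 had 1277 CPM of mir-532 under control shRNAs, while the other 3 wild-type clones had 2764 to 2978 CPM. Its gap to the nearest clone was 0.874 of the group's range, above the 95% critical value of Dixon's test for 4 samples. This was 1 of 32 groups of 4 clones examined, and chance alone flags about 1 group in 20. Clone 57 was also the lowest wild-type clone for the other members, and its ratio of mir-532 to mir-188, 35.9, lay within the range of the other wild-type clones.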

How the results depend on the processing

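Of 1072 refits of single members, 1040 kept the side of the threshold, 21 lost a call, 10 gained one and 1 reversed. Most refits were of members without a call in the main fit, so lost calls fell on far fewer refits. For called members, the refits that kept the call ran from 5 of 17 (mir-500b, knockdown in all clones) to 19 of 19 (mir-532, same comparison). The reversal was mir-500b on knockdown in all clones, at 0.082 with spike-in scaling. Signs of uncalled members changed in many more refits (165 in all, that one included). Members called on knockdown in all clones stayed within 1.5 times the count of 3 in 19 alternatives. A count that loses 1 member still passes this measure, so it does not show that the call of mir-500b held.

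In wild-type clones the count of 2 members lower on knockdown was 1 with spike-in scaling, 1 with the look-alike rows added together (which leaves fewer rows by construction) and 4 with the first vector pair alone. In deletion clones the count of 2 was 1 with spike-in scaling, 1 with look-alike rows added, 1 with the second vector pair alone, 0 without the replicate block, and 1 to 2 with a clone left out (1 without clone 42). Deletion under control shRNAs called 0 to 1 members with a clone left out (1 without clone 57). Deletion plus knockdown called 0 with spike-in scaling, 0 with total miRNA scaling and 1 with look-alike rows added. The interaction called 1 member with DESeq2, 1 with a mean of at least 100 counts, and 0 to 1 with a clone left out (1 without clone 52). The share change of mir-188, 0.42, was 0.24 with the first vector pair alone. Of the ratio of mir-532 to mir-188, the change in deletion clones, -0.70, was -0.43 with the first pair and -0.95 with the second. Apart from the construction named, the cause was not tested. The lowest count of a member in a library was 23, for mir-501.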
